A study of Mus musculus with 9 samples.

Results

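Tagap, Olr1 and Cass4 are 3 genes that were picked from a mouse mast cell RNA-seq experiment because each was more than 4 units lower on the log2 scale in cells given luteolin with an allergen stimulus than in cells given the stimulus alone. They are 3 of the 12 genes (0.104%) past that limit among 11560 genes tested, and of 47643 genes in the deposited count table. The limit used the luteolin and stimulus libraries, so the sizes of that fall are given below as a description without a test. The cells were bone marrow-derived mast cells (BMMCs), grown from the marrow of C57BL/6 mice for several weeks in medium conditioned by WEHI-3 cells, a source of interleukin-3. There were 3 groups of 3 libraries: untreated cells (Control), cells sensitized with DNP-IgE and challenged with DNP-BSA (BSA), and cells given the same stimulus and luteolin, a plant flavone, at 10 μM for 24 h (BSA + luteolin). The labels repeat that dose and time for every sample, and they are read here as those of the luteolin group. The study describes luteolin for these libraries in one place as a pretreatment and in another as following the challenge. The labels do not give the age of the mice, the length of the stimulus, or whether replicates came from separate animals or cultures, so p-values measure only the spread between these libraries, which may be technical. No group received luteolin without the stimulus.

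Cross-linking of IgE on the high-affinity receptor FcεRI activates Src-family and Syk kinases in mast cells, raises calcium and switches on MAP kinase, NFAT and NF-κB signaling, and a burst of new transcription follows. The 3 genes belong to different protein families. Tagap encodes a GTPase-activating protein and is known chiefly from activated T cells. Olr1 encodes LOX-1, a C-type lectin-like scavenger receptor that takes up oxidized low-density lipoprotein, best studied in endothelial cells and macrophages. Cass4 encodes a docking protein of the CAS family, which includes p130Cas (Bcar1) and Nedd9 and links focal adhesion kinase and Src to the cytoskeleton at sites of adhesion.

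The 3 genes lie on different chromosomes of the GRCm38 build. In the GENCODE M21 annotation, Tagap (ENSMUSG00000033450) spans chr17:7926000-7934897 on the plus strand, and its longest coding transcript has 10 exons. Olr1 (ENSMUSG00000030162) spans chr6:129485244-129507165 on the minus strand and has 8 exons, and it lies in the natural killer gene complex among other lectin-like receptor genes. Cass4 (ENSMUSG00000074570) spans chr2:172393794-172433757 on the plus strand and has 7 exons.

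The 250 bases before each gene's start, from the RefSeq promoter table for GRCm38.p6, are shown because the 3 genes changed together and the stimulus is known to act through a few transcription factors. They cover chr17:7925750-7925999 for Tagap, chr6:129507166-129507415 for Olr1 and chr2:172393394-172393643 for Cass4, each written 5′ to 3′ on the gene's own strand. Capitals mark matches, on either strand, to the NFAT core GGAAA, the AP-1 site TGANTCA, the EGR core GNGGGNG and the GATA core GATAA.
Tagap: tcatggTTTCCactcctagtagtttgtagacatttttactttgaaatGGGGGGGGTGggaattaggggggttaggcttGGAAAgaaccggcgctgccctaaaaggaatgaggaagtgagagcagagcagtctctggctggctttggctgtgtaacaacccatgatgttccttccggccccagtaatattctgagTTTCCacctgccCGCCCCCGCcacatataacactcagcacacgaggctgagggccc
Olr1: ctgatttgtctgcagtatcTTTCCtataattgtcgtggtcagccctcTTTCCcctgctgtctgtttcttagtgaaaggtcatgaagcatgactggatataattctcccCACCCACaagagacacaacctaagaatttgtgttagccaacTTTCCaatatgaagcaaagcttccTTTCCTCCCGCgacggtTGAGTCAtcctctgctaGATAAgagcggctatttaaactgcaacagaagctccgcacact
Cass4: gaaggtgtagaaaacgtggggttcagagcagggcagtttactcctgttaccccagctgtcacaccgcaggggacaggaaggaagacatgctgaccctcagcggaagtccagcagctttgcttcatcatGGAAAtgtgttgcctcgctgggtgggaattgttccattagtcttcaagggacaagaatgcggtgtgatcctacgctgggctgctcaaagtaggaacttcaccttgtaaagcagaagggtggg
The RefSeq start of Cass4 lies upstream of the GENCODE start. The search also covered the 50 bases after each start and looked for the CRE core TGACGT and the NF-kB consensus. The NFAT core occurred 3 times in Tagap, 4 times in Olr1 and once in Cass4, but 61.3% of all 32851 RefSeq promoters of this length hold at least 1. The EGR core, in 64.7% of promoters, occurred 6 times in Tagap, counting matches that overlap one another, 2 times in Olr1 and not in Cass4. In Olr1, 1 of its EGR matches overlaps the last base of an NFAT core. Olr1 alone among the 3 held an AP-1 site, at bases -60 to -54 from the start, and a GATA core, at -43 to -39. These motifs were found in 7.81% and 25.4% of promoters. No window held the CRE core, found in 7.51% of promoters, or the NF-kB consensus, found in 4.51%. No motif was present in all 3 windows except the NFAT core, and a match is only a match of letters.

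The libraries held 9515004 to 24605689 counts in genes, and 3 counts amount to 0.121 to 0.291 CPM, the count scaled to library size, here with TMM factors over the 9 libraries. These limits cover counting error only. Control replicate 1 stood apart from the other Control libraries: its chi-square per degree of freedom was 88.1 and 146 against them, and the other pairs within a group gave 4.05 to 15.2. All 10 mast cell markers were above 1 CPM in all 9 libraries, and their summed level was 54400 to 83400 CPM in Control, 58400 to 65400 in BSA and 70300 to 81500 in BSA + luteolin. Of the T cell markers, 0 of 6 reached 1 CPM in every library, with Cd3e and Cd8a at 0 counts and sums of 0 to 0.484 CPM in Control, 0.488 to 0.6 in BSA and 0.28 to 0.364 in BSA + luteolin. The corresponding sums of the 7 macrophage markers, 4 of them above 1 CPM in every library, were 315 to 330, 352 to 380 and 360 to 387 CPM. The 4 endothelial markers, 2 of them above 1 CPM throughout and Cdh5 at 0 counts, summed to 455 to 512, 502 to 523 and 541 to 580 CPM. The 3 basophil markers were all detected, at 1650 to 1880 CPM in Control, 1450 to 1500 in BSA and 1610 to 1750 in BSA + luteolin. The neutrophil markers, 1 of 4 above 1 CPM throughout, summed to 186 CPM in Control replicate 1, 5.28 and 6.59 in the other Control libraries, and 123 to 169 in the 6 stimulated libraries. Fits without Control replicate 1 therefore keep the Control libraries that differed most from the stimulated libraries in these markers. For the B cell markers, 0 of 4 reached 1 CPM in every library, Ms4a1 was at 0 counts and the highest sum was 0.775 CPM. The part of these cell types in the results below was not tested, and in bulk RNA fewer cells of a type and less RNA per cell cannot be told apart.

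Tagap was high with the stimulus and low with luteolin. Its levels in Control were 18.4, 15.3 and 13.4 CPM in replicates 1, 2 and 3. In BSA they were 130.9, 154.9 and 136.6 CPM. In BSA + luteolin they were 5.78, 5.22 and 5.37 CPM, from 124, 129 and 111 counts. The groups did not overlap, with BSA highest and BSA + luteolin lowest, and the lowest BSA library was 7.12 times the highest Control library. The group means were 15.7 ± 2.54 CPM in Control, 140.8 ± 12.5 in BSA and 5.46 ± 0.289 in BSA + luteolin (SD, n = 3 each).

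Olr1 followed the same order of groups. The Control libraries held 5.50, 6.20 and 5.69 CPM. The BSA libraries held 45.9, 32.6 and 51.6 CPM, a coefficient of variation of 22.5% that came with a low value in replicate 2. The BSA + luteolin libraries held 1.91, 2.27 and 1.40 CPM, from 41, 56 and 29 counts. No library of one group reached the range of another, and the lowest BSA library was 5.26 times the highest Control library. The means were 5.79 ± 0.362 CPM in Control, 43.4 ± 9.75 in BSA and 1.86 ± 0.435 in BSA + luteolin (SD, n = 3 each).

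Cass4 had the same order of groups and the most variable luteolin libraries of the 3 genes. It stood at 5.89, 5.52 and 5.40 CPM in Control and at 27.3, 28.9 and 28.4 CPM in BSA. In BSA + luteolin it stood at 1.17, 2.43 and 0.773 CPM, from 25, 60 and 16 counts, a coefficient of variation of 59.4% with replicate 2 the highest. These libraries were still all below the Control libraries, the lowest of which was 2.22 times the highest luteolin library. The means were 5.60 ± 0.254 CPM in Control, 28.2 ± 0.839 in BSA and 1.46 ± 0.865 in BSA + luteolin (SD, n = 3 each). Cass4 thus had the tightest BSA libraries of the 3 genes, with a coefficient of variation of 2.97%.

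**Figure D1:**
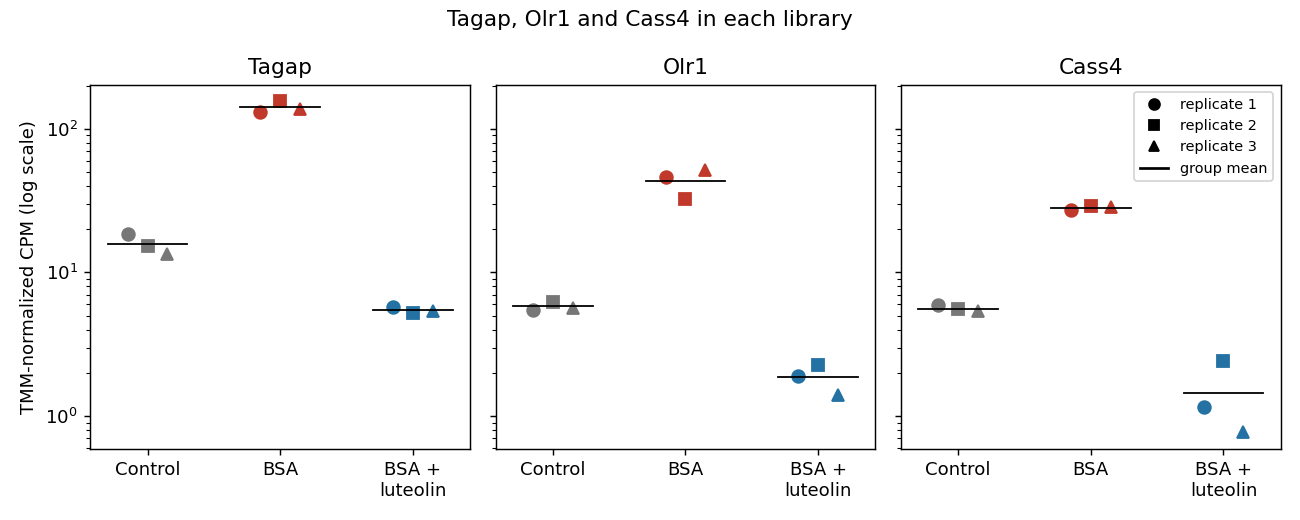
Level of Tagap, Olr1 and Cass4 in each of the 9 libraries, in TMM-normalized CPM on a log axis, with a symbol for each replicate number and a black line at the group mean. In every panel the 3 BSA libraries are highest and the 3 BSA + luteolin libraries are lowest, from 130.9 to 154.9 CPM and 5.22 to 5.78 CPM for Tagap.

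Per length of transcript, the order of the genes was the same in the 3 groups. In BSA the levels were 45.7 ± 4.07 RPKM (CPM per kilobase of exon) for Tagap, 12.1 ± 2.73 for Olr1 and 5.29 ± 0.157 for Cass4 (SD, n = 3 each). In Control they were 5.09 ± 0.825, 1.62 ± 0.101 and 1.05 ± 0.0475 RPKM, and in BSA + luteolin 1.77 ± 0.094, 0.521 ± 0.122 and 0.273 ± 0.162 RPKM. The lengths are those of all annotated exons, so a gene expressed from only some of them is understated. Libraries of neighbors in this order overlapped only for Olr1 and Cass4 in BSA + luteolin.

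The comparison of BSA with Control asks what the allergen stimulus did to the genes before luteolin enters. All 3 rose. Tagap was 8.96-fold higher, a log2 fold change of 3.16 (SE 0.162, adjusted p = 0.000196 by edgeR's quasi-likelihood test with Benjamini-Hochberg adjustment over 11560 genes). Olr1 was 7.5-fold higher, at 2.91 on the log2 scale (SE 0.198, edgeR adjusted p = 0.000607), and Cass4 5.02-fold higher, at 2.33 (SE 0.128, edgeR adjusted p = 0.000201). Ranked by log2 fold change among all genes tested, Tagap was the 18th from the top, Olr1 the 21st and Cass4 the 47th. Of all genes tested, 2.25% were called higher in this comparison, and in 16.6% the BSA libraries lay wholly above the Control libraries. The BSA libraries also took part in choosing the 3 genes, so these p-values are not independent of the choice. The 3 calls held without any single library, Control replicate 1 included, while the number of genes called in either direction was 378 with all libraries and 5207 without that one.

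BSA + luteolin compared with Control asks whether the genes came back to the unstimulated level or went past it. Tagap fell by 1.53 on the log2 scale (SE 0.17, edgeR adjusted p = 0.0106), a level 2.88-fold lower than Control. Olr1 fell by 1.63 (SE 0.245, edgeR adjusted p = 0.0208), 3.1-fold lower. The log2 fold change of Cass4 was -1.93 (SE 0.4), a 3.81-fold difference with an edgeR adjusted p = 0.0526, which did not pass the threshold of 0.05. The mean levels were 34.8% of Control for Tagap, 32.1% for Olr1 and 26% for Cass4, and the libraries of the 2 groups did not overlap for any of them. Of all genes tested, 2.75% were called lower in this comparison and 14.9% had luteolin libraries wholly below Control. The luteolin libraries also took part in choosing the genes.

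With a single library left out, few genes of any kind were called in this comparison, except without Control replicate 1. Over all genes tested, 351 were called with all libraries, and 47 and 50 without Control replicates 2 and 3. Without BSA + luteolin replicates 1, 2 and 3 they numbered 5, 2 and 25. In these fits the log2 fold changes were -1.63 to -1.494 for Tagap, -1.803 to -1.465 for Olr1 and -2.525 to -1.63 for Cass4. The adjusted p of Tagap by edgeR was 0.0503, 0.092, 0.0972 and 0.0682 without Control replicate 2 and BSA + luteolin replicates 1, 2 and 3 in turn. That of Olr1 was 0.101 and 0.0933 without Control replicates 2 and 3, and 0.143, 0.105 and 0.0908 without BSA + luteolin replicates 1, 2 and 3. That of Cass4 was 0.174 and 0.16 without Control replicates 2 and 3, and 0.248, 0.0742 and 0.155 without BSA + luteolin replicates 1, 2 and 3. Without Control replicate 1 the adjusted p of Cass4 was 0.000207, at a log2 fold change of -1.88, where 6931 of all genes were called. With DESeq2 it was 0.000251, where 1379 genes were called. The direction was lower in each of these fits.

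BSA + luteolin against BSA is the comparison that chose the genes. The log2 fold changes were -4.69 (SE 0.091) for Tagap, -4.52 (SE 0.187) for Olr1 and -4.23 (SE 0.213) for Cass4, which correspond to levels 25.8-fold, 23-fold and 18.7-fold lower. Their ranks from the lowest were 2, 5 and 8. The luteolin level was 3.87% of the BSA mean for Tagap, with single libraries at 3.71% to 4.1%. It was 4.29% for Olr1, with libraries at 3.23% to 5.23%, and 5.16% for Cass4, with libraries at 2.74% to 8.6%. In this comparison 21.9% of all genes were called lower and 26.2% had luteolin libraries wholly below BSA. The log2 fold change of Cass4 was -3.94 without BSA + luteolin replicate 3, short of the limit. Without any other single library it stayed past the limit, from -4.85 without BSA + luteolin replicate 2 to -4.09 without replicate 1. At that limit, Dusp2 (0.161 against 2.86 CPM) and Egr3 (161 against 2720 CPM) were the last genes inside, both at -4.08. The luteolin mean of Dusp2 lay near the level of 3 counts, 0.121 to 0.145 CPM in those libraries, so its place is uncertain. Csf1, at -3.95 (37.3 against 575 CPM), and Nr4a3, at -3.86 (46.3 against 672 CPM), were the first outside.

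**Figure D2:**
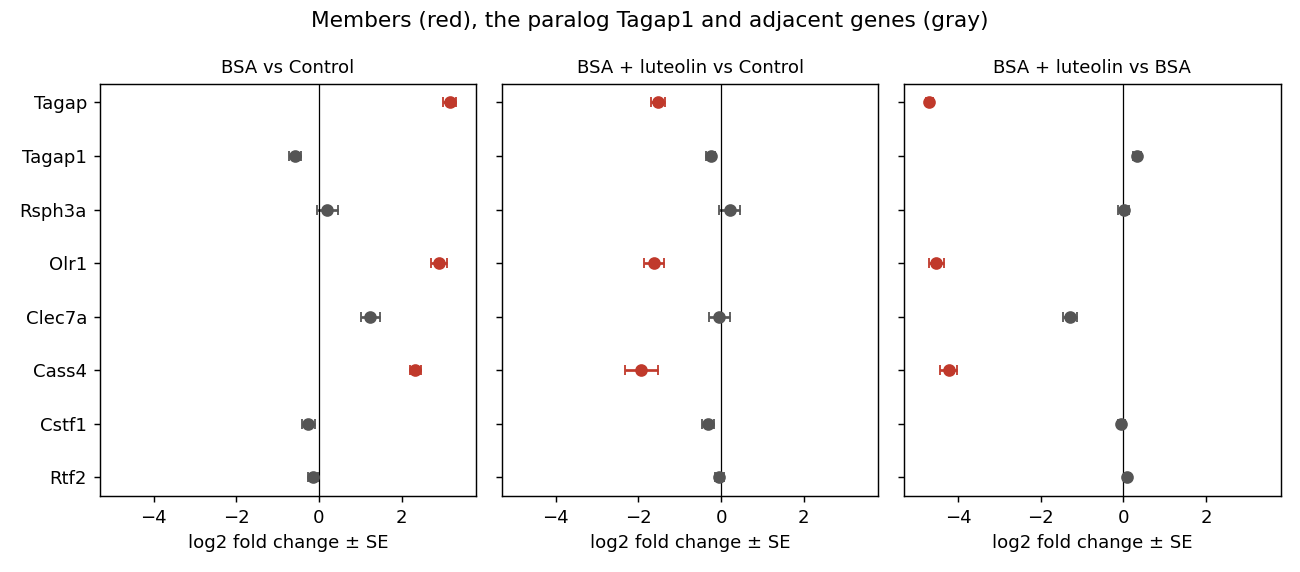
Log2 fold changes with their standard errors (horizontal bars) from edgeR in the 3 comparisons, for the 3 genes (red), the paralog Tagap1 and adjacent genes (gray), with 0 as a vertical line. Tagap stands at 3.16, -1.53 and -4.69 from left to right, while Rsph3a, Cstf1 and Rtf2 sit near 0 in each panel.

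Tagap has a close copy on the same chromosome, Tagap1 (ENSMUSG00000052031, chr17:6955011-6961156, minus strand). Of the 3027 stretches of 50 bases in annotated Tagap transcripts, 1441 (47.6%) also occur in Tagap1, so how reads were assigned between them matters, and the treatment of reads with several matches is not given in the sources used here. Tagap1 did not follow Tagap. It stood at 31.8, 33.2 and 30.7 CPM in Control, 18.4, 21.2 and 24.5 in BSA and 28.1, 25.2 and 27.4 in BSA + luteolin. Its BSA libraries lay below both other groups, the reverse of Tagap. The lowest Control library was 1.25 times the highest BSA library, and 12.1% of all genes had BSA libraries wholly below Control. The lowest BSA + luteolin library was only 1.03 times the highest BSA library, a separation for which no share of all genes is given. Tagap1 was -0.58 on the log2 scale in BSA against Control (SE 0.138, edgeR adjusted p = 0.076, and 0.000744 without Control replicate 1). That difference also passed with DESeq2 (0.00303), library size alone (0.0382) and all 9 libraries in 1 fit (0.0167). Tagap1 was 0.34 in BSA + luteolin against BSA (SE 0.103, edgeR adjusted p = 0.0167), a call lost without BSA replicate 1 (0.109) or BSA + luteolin replicate 1 (0.0806) and with all 9 libraries in 1 fit (0.123), and -0.25 in BSA + luteolin against Control (SE 0.109, edgeR adjusted p = 0.23, and 0.0346 without Control replicate 1).

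Counted as 1 gene, Tagap and Tagap1 together held 47.6 ± 3.2 CPM in Control, 162 ± 13.5 in BSA and 32.4 ± 1.78 in BSA + luteolin (SD, n = 3 each). Tagap made up 30.3% to 36.6% of the sum in Control, 84.8% to 87.9% in BSA and 16.4% to 17.2% in BSA + luteolin. The sum rose by 1.77 on the log2 scale from Control to BSA (edgeR adjusted p = 0.000569) and was 2.32 units lower with luteolin than in BSA. Against Control the sum fell by 0.56 with luteolin (edgeR adjusted p = 0.0455). The order of the 3 groups is thus the same in the sum of the copies, with smaller differences. Reads that match both copies may be missing from the sum, since their handling is not given. Summing was chosen after the values were seen.

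**Figure D3:**
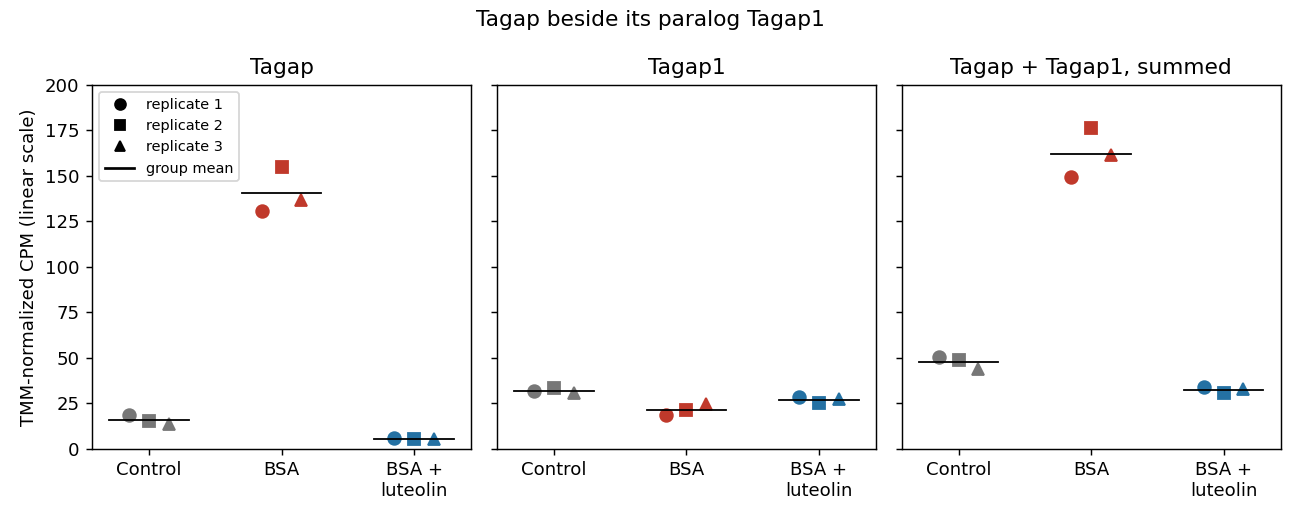
Level of Tagap, of its paralog Tagap1 and of both summed, in TMM-normalized CPM on a linear axis from 0, with a symbol for each replicate number and a black line at the group mean. Tagap and the sum are highest in BSA (162 ± 13.5 CPM for the sum) and Tagap1 is lowest there.

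Overlapping genes held few counts. The antisense gene E430024P14Rik shares 716 exonic bases with Tagap and held 13, 38 and 8 counts in Control, BSA and BSA + luteolin, against 860, 8795 and 364 for Tagap. Gm14455, antisense to Cass4 over 1130 exonic bases, held 3, 3 and 1 counts against 309, 1766 and 101 for Cass4. The library kit marks strand, but the strand setting of the counting is not given in the sources used here. Of Olr1 sequence, 0.165% of the 50-base stretches occur in another gene.

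The genes adjacent to each locus were compared to see whether a whole stretch of chromosome moved. Rsph3a, a radial spoke protein gene 10717 bases from Tagap, held 6.92 ± 2.16, 8.06 ± 0.434 and 8.09 ± 0.737 CPM in Control, BSA and BSA + luteolin (SD, n = 3 each). Cstf1, an mRNA cleavage factor gene on one side of Cass4, held 35.3 ± 5.72, 29.7 ± 1.86 and 28.6 ± 2.12 CPM, and Rtf2, a replication termination factor gene on the other side, held 97.7 ± 8.74, 88.9 ± 6.8 and 95 ± 2.52 CPM. None of these was called in the 3 comparisons by edgeR with TMM scaling, and with library size alone Rtf2 was called higher in BSA + luteolin than in BSA (log2 fold change 0.21, edgeR adjusted p = 0.0107). Fndc1 beside Tagap had 0 counts, and Tmem52b, 5390 bases from Olr1, had 0, 4 and 0 counts.

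The neighbor of Olr1 on the other side moved with it. Clec7a encodes Dectin-1, the C-type lectin receptor for fungal β-glucan, 12465 bases away, and GENCODE M21 lists it as a polymorphic pseudogene. It stood at 3.02, 5.04 and 4.66 CPM in Control, 10.7, 8.35 and 10.8 in BSA and 3.82, 3.84 and 4.59 in BSA + luteolin. The BSA libraries lay above all others, and the other groups overlapped. Clec7a rose by 1.24 on the log2 scale in BSA against Control (SE 0.235, edgeR adjusted p = 0.0391), a call that remained without Control replicate 1 and was lost without any other single library, with an adjusted p of up to 0.206, and also with library size alone (0.0662) or with replicate number as a block (0.114). It fell by 1.28 with luteolin against BSA (SE 0.166, edgeR adjusted p = 1.35e-05), and was -0.05 against Control (edgeR adjusted p = 0.918). The next coding gene, Clec1a, was under the count filter, at 0.146, 4.46 and 3.59 CPM in Control and 0.15 to 0.542 CPM in the stimulated libraries, so that here Control replicate 1 was with the stimulated libraries.

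The families of Cass4 and Olr1 were followed by lists of their other members. In BSA against Control the CAS family and its partners had 1 of 21 tested genes higher and 0 lower, the scavenger receptors 0 of 15 either way, and the C-type lectin-like receptors of the natural killer gene complex 3 of 10 higher and 1 lower. The median log2 fold changes of the lists were 0.10, -0.02 and 0.62 in that order, beside 0.02 over all genes, and 3.27% of all genes were called in either direction, 1.02% as lower. The 3 lectin-like receptors that rose became 0 without any single library other than Control replicate 1. Without that one, 4, 4 and 6 genes of the CAS, scavenger and lectin-like lists were called higher and 6, 4 and 1 lower, where 2616 and 2591 of all 11560 genes were called higher and lower.

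With luteolin against BSA, where 40% of all genes were called and 18.1% were called higher, the same lists had 0 higher and 7 lower of 21, 0 and 5 of 15, and 0 and 7 of 10. With all 9 libraries in 1 fit the numbers lower were 3, 2 and 3, where 917 of all genes were called lower against 2527 with the 6 libraries alone. The medians were -0.16, -0.08 and -0.40, beside 0.02 over all genes. Scaled by library size alone the median of all genes shifted to 0.13, and the CAS list then had 3 genes higher and the scavenger receptors 2. The scavenger receptors had 3 lower without BSA + luteolin replicate 2 or BSA replicate 3. Against Control, BSA + luteolin had 0 genes higher in any of these lists, and 2, 0 and 1 lower, with medians of -0.12, -0.10 and -0.03 beside 0.01. Of all genes, 3.04% were called in that comparison and 0.285% were called higher. Without Control replicate 1 the numbers lower were 9, 5 and 2, and those higher 3, 2 and 3, where 3475 and 3456 of all genes were called lower and higher. Without any other single library the CAS list had 0 lower, and without any luteolin library the lectin-like list had 0 lower. The gene of these lists that fell most with luteolin against BSA was Nedd9.

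Among the CAS family, Nedd9, a CAS scaffold known from lymphocytes, held 308 ± 26.9, 910 ± 68 and 201 ± 17.8 CPM (SD, n = 3, as for the genes that follow) in Control, BSA and BSA + luteolin. Nedd9 rose by 1.56 on the log2 scale with BSA (SE 0.114, edgeR adjusted p = 0.000735) and fell by 2.18 with luteolin against BSA (SE 0.0716, edgeR adjusted p = 1.76e-13). It also fell by 0.62 against Control (edgeR adjusted p = 0.0418), a call lost without any single library but Control replicate 1 and with replicate number as a block (0.061). Efs, another member of the family, was under the count filter.

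Of the scavenger receptors, Msr1, the class A receptor for modified lipoprotein, held 1.06 ± 0.119, 2.26 ± 0.245 and 0.899 ± 0.262 CPM and fell by 1.34 with luteolin against BSA (SE 0.327, edgeR adjusted p = 0.00416). Cd163, the hemoglobin scavenger receptor, held 3.37 ± 2.36, 1.77 ± 0.593 and 0.77 ± 0.19 CPM and fell by 1.2 (SE 0.369, edgeR adjusted p = 0.0164). The Cd163 call was lost without BSA replicate 3 or BSA + luteolin replicate 2, and with all 9 libraries in 1 fit. Neither was called with BSA against Control.

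Of the lectin-like receptors, Cd69, an early activation antigen of leukocytes, held 482 ± 185, 1390 ± 45.7 and 395 ± 10.8 CPM. It rose by 1.52 with BSA (SE 0.258, edgeR adjusted p = 0.0276) and fell by 1.81 with luteolin (SE 0.0538, edgeR adjusted p = 4.84e-14). Clec4e, which encodes the mycobacterial glycolipid receptor Mincle, held 23.6 ± 14.4, 100 ± 14.1 and 23.3 ± 0.331 CPM, with log2 fold changes of 2.07 with BSA (SE 0.393, edgeR adjusted p = 0.0395) and -2.1 with luteolin (SE 0.0894, edgeR adjusted p = 5.07e-12). Both rises with BSA were lost without any single library but Control replicate 1. Clec2d, a ligand of an inhibitory natural killer receptor, differed from them in BSA against Control, with 207 ± 28.2, 98.6 ± 10 and 77.7 ± 6.86 CPM. It fell by 1.07 with BSA (SE 0.135, edgeR adjusted p = 0.00823), a call that was lost without BSA replicates 2 or 3. Clec2d also fell by 0.34 with luteolin against BSA (SE 0.0784, edgeR adjusted p = 0.00263), a call lost with all 9 libraries in 1 fit, and fell by 1.42 against Control (SE 0.137, edgeR adjusted p = 0.00633), a call lost without any single luteolin library.

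**Figure D4:**
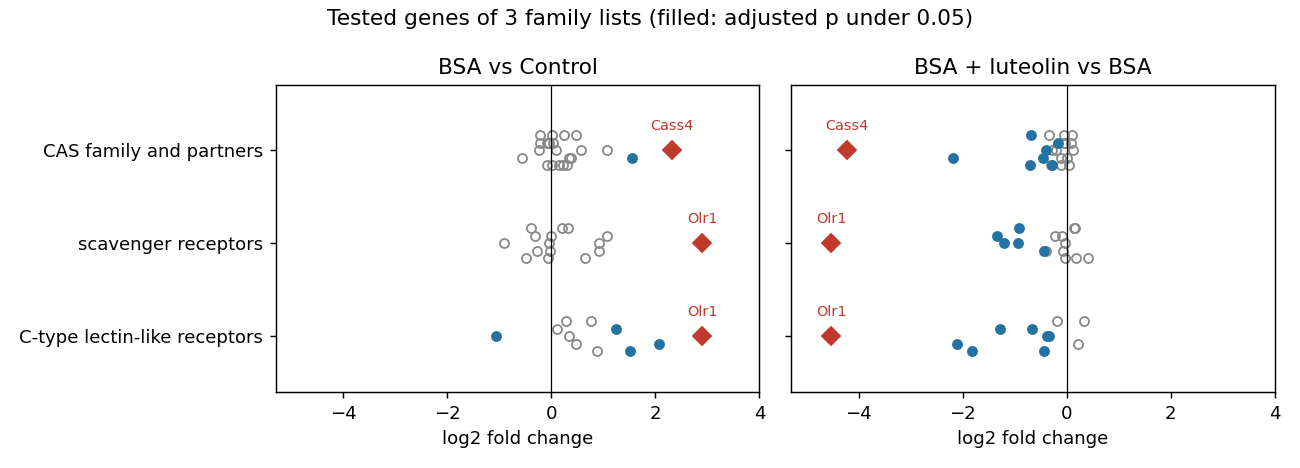
Log2 fold changes from edgeR of the tested genes in 3 lists of family members and partners (circles, filled where the adjusted p was under 0.05), in BSA against Control (left) and BSA + luteolin against BSA (right), with Olr1 and Cass4 as red diamonds beside their own lists. The diamonds lie at 2.33 and 2.91 on the left and -4.23 and -4.52 on the right, outside the range of the circles. Both genes were chosen for their fall on the right, and the left panel shares the BSA libraries. Nothing is therefore read from their place.

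The genes whose log2 CPM over the 9 libraries was most like that of each of the 3 were found by Pearson's r, as a description. All points share the 3-group structure, the libraries and their scaling. For Tagap these were Dusp6, a phosphatase of ERK (r = 0.998), Ier5 (0.997), Maff (0.996), Evi2a (0.995) and Rilpl2 (0.993). Dusp6 held 63.9, 253 and 31 CPM in Control, BSA and BSA + luteolin. For Olr1 they were Gimap6 (0.996), Ets2 (0.995), Txnrd1 (0.994), Lbh (0.993) and Gimap5 (0.991), where Gimap5 and Gimap6 are GTPase genes known from lymphocytes. For Cass4 they were Gimap5 (0.984), Ints12 (0.984), Slc25a25 (0.982), Fhl2 (0.981) and Olr1 itself (0.98). Between the 3 genes, r was 0.986 for Tagap with Olr1, 0.963 for Tagap with Cass4 and 0.98 for Olr1 with Cass4. Without Control replicate 1, 5, 4 and 2 of the 5 nearest genes of Tagap, Olr1 and Cass4 stayed among the nearest 5, and by Spearman's rank correlation 0, 0 and 1 did.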

How the data were processed

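Total RNA libraries (stranded mRNA kit) were sequenced by the authors and aligned with STAR 2.7.0f to mm10 (GRCm38), and the authors deposited counts of reads per gene, not normalized. Annotation release, strand setting and handling of multi-mapped reads are not given in the sources used here. The 3 genes, the family and marker lists and the tests were chosen with earlier results of these data known. Genes with a median above 1 CPM over 9 libraries (11560) were fitted with edgeR 4.0.16 (R 4.3.3, quasi-likelihood, TMM, Benjamini-Hochberg, adjusted p threshold 0.05), with the 6 libraries of each comparison and no covariate. CPM values use TMM factors over 9 libraries; log2 CPM has a prior count of 2. Alternatives used DESeq2 1.42.0, limma 3.58.1, other scaling, no filter, all 9 libraries, a replicate block and each library left out. Named genes were the 3, the paralog, overlapping and adjacent genes, the 5 most alike, the nearest at the limit, and up to 6 called list genes per comparison beyond 2-fold. On simulated data for BSA against Control, 60% of 2-fold and 98% of 4-fold changes were recovered (100 genes each). Lists related to the function of Tagap are not reported here.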

Additional observations from a re-analysis of the deposited data

How the results depend on the processing

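In BSA against Control, the rise of Tagap, Olr1 and Cass4 kept its direction and call under all alternatives run, from 1.77 (Tagap with Tagap1, chosen after seeing the data) to 3.27 on the log2 scale. In BSA + luteolin against BSA all falls kept their direction, and that of Tagap was -2.32 with Tagap1 included. Against Control, single-library omissions gave -1.63 to -1.39 for Tagap, -1.80 to -1.46 for Olr1 and -2.52 to -1.63 for Cass4. The adjusted p of Cass4 passed the threshold with DESeq2 (-1.94), limma (-2.02), library size alone (-1.99), no filter (-1.86) and all 9 libraries in 1 fit (-1.92); the cause was not tested. Genes called in BSA against Control (378) numbered 1227 with DESeq2, 618 with no filter, 1105 with all 9 libraries and 90 to 5207 without single libraries. Those in BSA + luteolin against Control (351) numbered 1379, 811, 1251 and 2 to 6931, and those in BSA + luteolin against BSA (4624) numbered 1093 with all 9 libraries. Library size alone moved the share of calls that were lower from 31.2% to 62.7% in BSA against Control and from 54.6% to 31.4% in BSA + luteolin against BSA. The low luteolin levels of Cass4 and Olr1 rest on 16 to 60 counts a library, which limits their precision.

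Replicate numbers are shared by the groups, but same-numbered libraries did not deviate together in every pair (r from -0.255 to 0.24, -0.124 to 0.307 and -0.024 to 0.283 in the 3 comparisons), so the replicate block is only an alternative. It gave 144, 212 and 5582 called genes and changed no call of Tagap, Olr1 or Cass4 (in the 3 family lists the calls lost were those of Clec7a in BSA against Control and of Nedd9 and Zyx in BSA + luteolin against Control), with adjusted p of 0.0243, 0.0449 and 0.0633 against Control.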

Other observations

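Of the 12 genes below -4 in BSA + luteolin against BSA, 10 were called higher in BSA than in Control, 5 were called lower in BSA + luteolin than in Control, Tagap and Olr1 among them, and 1, Tnf, was called higher (edgeR). Over all genes tested these shares were 2.25%, 2.75% and 0.285%, and nothing is read from the counts, since the 12 genes were chosen for high BSA and low luteolin values. Tnf, the gene of the cytokine TNF, was 5.67 higher in BSA than in Control on the log2 scale (edgeR adjusted p = 0.000206) and 1.49 higher in BSA + luteolin than in Control (edgeR adjusted p = 0.0374), and so differed from Tagap, Olr1 and Cass4, whose luteolin libraries lay below Control. Egr2, an early growth response factor, was 3.98 higher in BSA than in Control (edgeR adjusted p = 4.88e-05) and fell by 0.65 in BSA + luteolin against Control (edgeR adjusted p = 0.048). Gm43890 was 0.18 in BSA against Control (edgeR adjusted p = 0.849) and fell by 4.46 in BSA + luteolin against Control (edgeR adjusted p = 0.0184). Its mean was 3.9 CPM in BSA and 0.157 in BSA + luteolin, where 3 counts amount to 0.121 to 0.145 CPM. The size of its fall is therefore uncertain. For Gm43890, as for Tnf and Egr2, the luteolin libraries also took part in the choice.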
